A study of Mus musculus with 24 samples.

Results

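Cathepsins are the proteases of the lysosome, and cystatin C is a secreted protein that blocks those of them that use a cysteine in the active site. The genes described here were 9 cathepsins (Ctsa, Ctsb, Ctsc, Ctsd, Ctsh, Ctsk, Ctsl, Ctss and Ctsz) and the cystatin C gene Cst3. They were found by matching the accession of each non-control probe to a gene table, which gave 15 probes for all 10 genes, out of 41174 probes and 18747 named genes on the array. Of the 10 genes, 4 had more than 1 probe, and each was read on its brightest probe, which was the same probe in both tissues. Every one of the 15 probes was well above background on all 24 arrays, so no member was lost to the filter on dim probes.

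The arrays were single-colour Agilent mouse arrays, 3 for each of 8 groups. The groups were aortic or skeletal muscle endothelium from wild-type C57BL/6 mice (WT) or galectin-3-deficient mice (KO) of the same background, all male and 8 weeks old at the start, fed for 8 weeks a high-fat diet (HFD, 60% of calories from fat) or standard chow (12% of calories from fat). The KO mice were homozygous for a deletion of exons 2 to 4 of Lgals3, and the muscle was a group of leg muscles (plantaris, gastrocnemius and biceps femoris). The cells were sorted as live, CD105+ and CD45-, which selects for an endothelial surface protein and against leukocytes. Each array stood for 1 of 3 experiments and for tissue pooled from 3 mice by the study's methods or from 3 to 4 by the deposited description, so that the spread between arrays is a spread between pools.

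In most cells cathepsins are made as inactive precursors, carried to the lysosome and activated there by its acid. Ctsb, Ctsl, Ctsh, Ctsz, Ctsc, Ctsk and Ctss encode cysteine proteases, Ctsd an aspartic protease and Ctsa a serine carboxypeptidase that also protects other lysosomal enzymes. In the vessel wall, secreted cathepsins K, S and L are known for cutting elastin and collagen, and cystatin C is their main inhibitor outside the cell. Cathepsin S also trims the invariant chain in cells that present antigen on MHC class II, and macrophages are a rich source of it.

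Promoter sequences are shown for the genes whose levels differed most between the tissues or the arrays, and for those with an element bound by regulators of lysosomal genes. RefSeq (GRCm38.p6) gave 9 start site windows for 8 of the 10 members, and Ctsb and Ctsh had none. In the 250 bases before each start, 4 motifs were searched on both strands, and capitals mark them: the E-box CACGTG, the CLEAR core TCACGTGA, which contains the E-box and is the site of the lysosomal regulator TFEB, the purine box GAGGAAGT, and the core of an interferon-stimulated response element, which is a GAAA on each side of any pair of bases. The E-box lay in the windows of 3 members (Ctsa, Ctsd and Ctsl) and in 6.02% of all 32851 windows, and the CLEAR core in those of 2 (Ctsa and Ctsd) and in 0.785% of all. Ctsa had a first window without either, and only its second window held them. The interferon element lay in the window of Ctss, 21 to 12 bases before the start, and in 2.98% of all windows. The purine box lay in that of Ctsc and in 2.44% of all. The window of Ctsk held none of the motifs. Ctsk and Ctss are neighbours on chromosome 3, with 1 gene model between them. A match describes letters only, and binding was not measured.
Ctss, chr3:95526536-95526785, plus strand: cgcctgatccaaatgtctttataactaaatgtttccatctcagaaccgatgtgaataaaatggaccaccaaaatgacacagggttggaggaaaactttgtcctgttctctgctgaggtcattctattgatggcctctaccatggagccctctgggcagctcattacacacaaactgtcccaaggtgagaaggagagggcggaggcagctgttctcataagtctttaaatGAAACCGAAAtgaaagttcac
Ctsk, chr3:95498960-95499209, plus strand: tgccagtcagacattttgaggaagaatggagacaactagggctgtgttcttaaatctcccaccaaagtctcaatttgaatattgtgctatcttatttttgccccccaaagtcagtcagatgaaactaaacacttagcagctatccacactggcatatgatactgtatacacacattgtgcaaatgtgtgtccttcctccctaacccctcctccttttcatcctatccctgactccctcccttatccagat
Ctsa, second window, chr2:164833523-164833772, plus strand: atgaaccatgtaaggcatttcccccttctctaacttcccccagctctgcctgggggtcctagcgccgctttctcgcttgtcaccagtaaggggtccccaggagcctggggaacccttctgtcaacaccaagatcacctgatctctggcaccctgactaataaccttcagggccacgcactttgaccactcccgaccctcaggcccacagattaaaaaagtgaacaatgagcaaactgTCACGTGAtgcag
Ctsd, chr7:142387828-142388077, minus strand: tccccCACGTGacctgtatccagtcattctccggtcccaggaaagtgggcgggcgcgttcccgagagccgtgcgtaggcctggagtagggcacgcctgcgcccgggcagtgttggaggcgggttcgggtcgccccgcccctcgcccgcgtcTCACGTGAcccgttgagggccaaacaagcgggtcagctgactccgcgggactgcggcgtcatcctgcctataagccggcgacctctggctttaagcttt

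Levels are given as the log2 of the processed signal relative to the 75th percentile of its array, which is the value 0. The 75th percentile ranged from 2390 to 5938 and the share of spots well above background from 59.5% to 75.7%. The probe of Lgals3, the deleted gene, read higher with the KO label in most pairs. It read 0.90 to 3.20 on the aortic arrays labelled WT and 2.40 to 4.53 on those labelled KO, and in muscle 3.27 to 4.98 and 4.31 to 6.31, with KO higher in 5 of 6 aortic and 6 of 6 muscle pairs. Where this probe lies relative to the deleted exons is not given in the sources used here, so it checks nothing about the deletion, and strains are named here as the arrays are labelled. On 10 probes that separated the strains by over 1 log2 on the 16 arrays of experiments 2 and 3, with 0 set at the WT level and 1 at the KO level, the experiment 1 chow arrays lay at −0.08 to 0.06 (WT) and 0.89 to 0.98 (KO). The experiment 1 HFD arrays lay in between, at 0.20 to 0.51 for those labelled WT and 0.48 to 0.51 for those labelled KO, and values without experiment 1 are therefore given with the main results below. The 12 endothelial markers were all well above background on every array.

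The 10 genes fell into those with steady and those with scattered levels over the arrays. Over the 12 arrays of a tissue, the levels of Ctsa, Ctsb, Ctsd, Ctsl, Ctsz and Cst3 spanned 0.77 to 1.45 log2 in aorta and in muscle. Ctsc and Ctsh spanned 0.95 and 0.96 log2 in aorta but 2.64 and 2.67 in muscle. Ctsk spanned 2.55 in aorta and 4.08 in muscle. Ctss, the antigen-presentation cathepsin, was the most scattered, over 4.44 log2 in aorta and 8.89 in muscle.

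**Figure D1:**
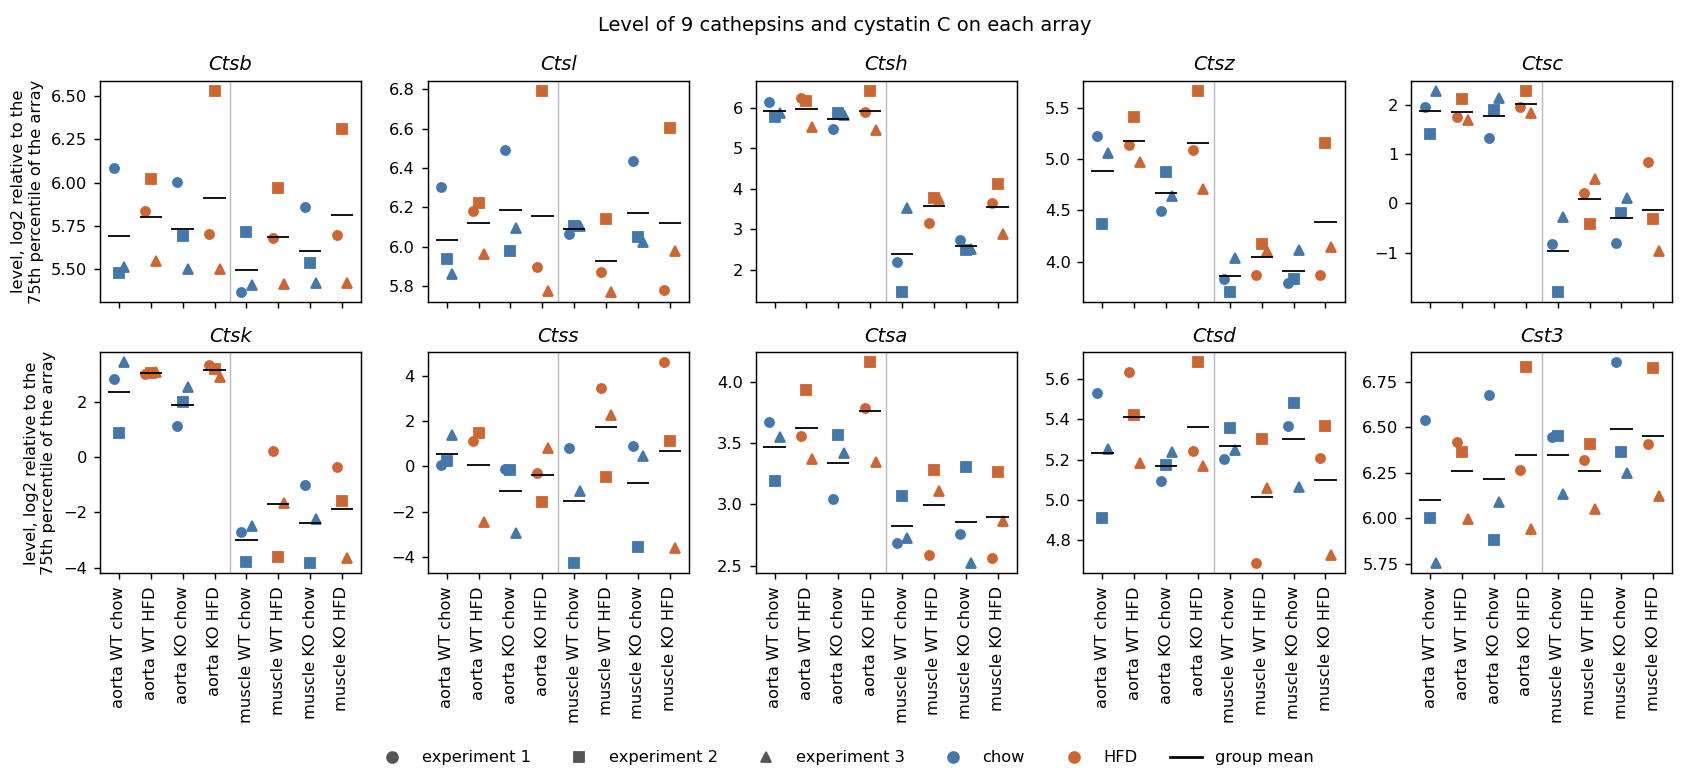
Level of each gene (log2 relative to the 75th percentile of the array) on every array, by group, with the experiment as symbol shape, the diet as colour and the group mean as a line; each panel has its own vertical scale. Ctsc, Ctsh and Ctsk lie higher on all 12 aortic arrays than on all 12 muscle arrays, and Ctss spans 8.89 log2 in muscle.

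The first question was how the cathepsins differ between a conduit artery and the vessels of a muscle. Of the 10 members, 5 were higher in the cells sorted from aorta than in those from muscle (Ctsk, Ctsh, Ctsc, Ctsz and Ctsa). No member was higher in muscle. Among all 27346 probes tested, 16% were higher in aorta and 30.2% higher in muscle at an adjusted p under 0.05 (limma). The median of all probes in this comparison was −0.27 log2, and the median of the 10 members was 0.39, or 0.67 above it. The split of calls depended on the scaling, with 34.6% of the calls higher in aorta as computed here and 58.9% with the deposited log2 table, which was scaled within each tissue and puts the median of all probes at −0.01. The 10 members were again 0.67 above the median of all probes with that table, and no member was called higher in muscle under any of 4 scalings.

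Ctsk, the collagen- and elastin-cutting cathepsin known from osteoclasts and from fibroblasts, had the largest difference. Its level was 0.89 at the lowest, 2.97 at the median and 3.43 at the highest of the 12 aortic arrays, and −3.85, −2.36 and 0.23 in muscle. The ranges did not overlap, and the difference was 4.85 log2 (SE 0.45, adjusted p = 1.01e-07). Without experiment 1 it was 5.50 log2.

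Ctsh encodes an aminopeptidase of the papain family that also processes surfactant protein in the lung. It ran from 5.46 through a median of 5.89 to 6.42 in aorta and from 1.45 through 3.03 to 4.12 in muscle. All aortic arrays lay above all muscle arrays, and the difference was 2.87 log2 (SE 0.21, adjusted p = 4.60e-09). It was 2.80 log2 without experiment 1.

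Ctsc, the dipeptidyl peptidase that activates the serine proteases of neutrophil and lymphocyte granules, ran from 1.32 through 1.91 to 2.27 in aorta and from −1.80 through −0.29 to 0.84 in muscle. Its groups did not overlap either, with a difference of 2.21 log2 (SE 0.22, adjusted p = 1.84e-07) and 2.37 log2 without experiment 1. A probe with all 12 aortic arrays above all 12 muscle arrays was found in 3.55% of the probes tested, and in 3 of the 10 members.

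Smaller differences were found for the carboxypeptidases Ctsz and Ctsa, whose tissue ranges overlapped. Ctsz ran from 4.37 through 5.01 to 5.66 in aorta and from 3.71 through 3.95 to 5.16 in muscle, a difference of 0.92 log2 (SE 0.16, adjusted p = 1.16e-04). Ctsa ran from 3.04 through 3.55 to 4.16 in aorta and from 2.52 through 2.81 to 3.30 in muscle, a difference of 0.65 log2 (SE 0.15, adjusted p = 0.00124). All 5 of these genes were higher in aorta in each of the 12 comparisons within a strain, diet and experiment. That count uses the arrays that gave the calls and is no separate evidence for them. The call of Ctsa was lost without experiment 1, when the difference was 0.55 log2 (adjusted p = 0.0613), while that of Ctsz held at 0.80 log2 (adjusted p = 0.0199). The 2 probes of Ctsz gave 0.92 and 1.00 log2, but the 3 probes of Ctsa ran from −0.17 to 0.65, with a mean of 0.37.

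The endopeptidases Ctsb and Ctsl, the aspartic protease Ctsd and the inhibitor Cst3 did not pass the threshold in this comparison. Their differences were 0.13 log2 (95% interval −0.18 to 0.45) for Ctsb, 0.05 (−0.24 to 0.34) for Ctsl, 0.12 (−0.13 to 0.38) for Ctsd and −0.16 (−0.47 to 0.15) for Cst3. These 4 values depended on the scaling, and all 4 lay above the median of all probes. With quantile normalization Ctsb (0.37), Ctsl (0.31) and Ctsd (0.33) passed the threshold as higher in aorta, and with the deposited log2 table Ctsb (0.40) and Ctsd (0.39) did, while Ctsl (0.31) did not. Cst3 turned to 0.12 and 0.11 log2 under these scalings, without passing, and Ctsl to −0.02 without experiment 1. The 2 probes of Ctsd gave −0.05 and 0.12 log2. Ctss differed by −0.26 log2, with an interval from −2.10 to 1.58 that leaves its direction unsettled.

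The tissue difference was found in some lists of other lysosomal genes and was divided in others. Of all probes tested, 16% were higher in aorta and 30.2% higher in muscle. Among the lysosomal glycosidases, lipases and sulfatases, 22 of 28 were higher in aorta and none higher in muscle, with a median of 0.90 log2. They included Acp5, the tartrate-resistant acid phosphatase (4.10 log2, adjusted p = 2.11e-07), Gaa, the acid alpha-glucosidase (2.25), Arsb, a sulfatase of dermatan sulfate (2.03), and Hexa, a subunit of beta-hexosaminidase (1.68).

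Of 10 other lysosomal proteases tested, 6 were higher in aorta and 2 higher in muscle. Dpp7 (3.24 log2) and Cpq (3.18), which remove dipeptides and single residues, Scpep1 (2.06), a serine carboxypeptidase, and Ctsf (1.83), another cysteine cathepsin, were the widest apart. Lgmn, the asparaginyl endopeptidase that activates some cathepsins, was 0.56 higher and Ctso 0.43 higher. Ctsw, a cathepsin of cytotoxic lymphocytes, and Prcp, a carboxypeptidase, were lower in aorta, with differences of −1.32 and −0.81 log2.

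The other lists were more divided. Of 21 genes for lysosomal membrane proteins, sorting and regulation, 7 were higher in aorta and 3 higher in muscle, with a median of 0.06 log2. The higher ones included Cd63, a tetraspanin (2.32 log2), and Scarb2, a lysosomal membrane protein (1.02), and the lower ones were Npc1, the cholesterol exporter (−0.79), the proton pump subunit Atp6v0a1 (−0.64) and the regulator Tfeb (−0.67). Of the other cystatins, 4 of 11 were bright enough to test: Cstb, the cytosolic cystatin B, was higher in aorta (0.75 log2) and Cst6 higher in muscle (−0.79). Of 6 MHC class II loading genes tested, H2-DMb1, a chain of the peptide exchange factor, was higher in aorta (2.11 log2) and the others did not pass.

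**Figure D2:**
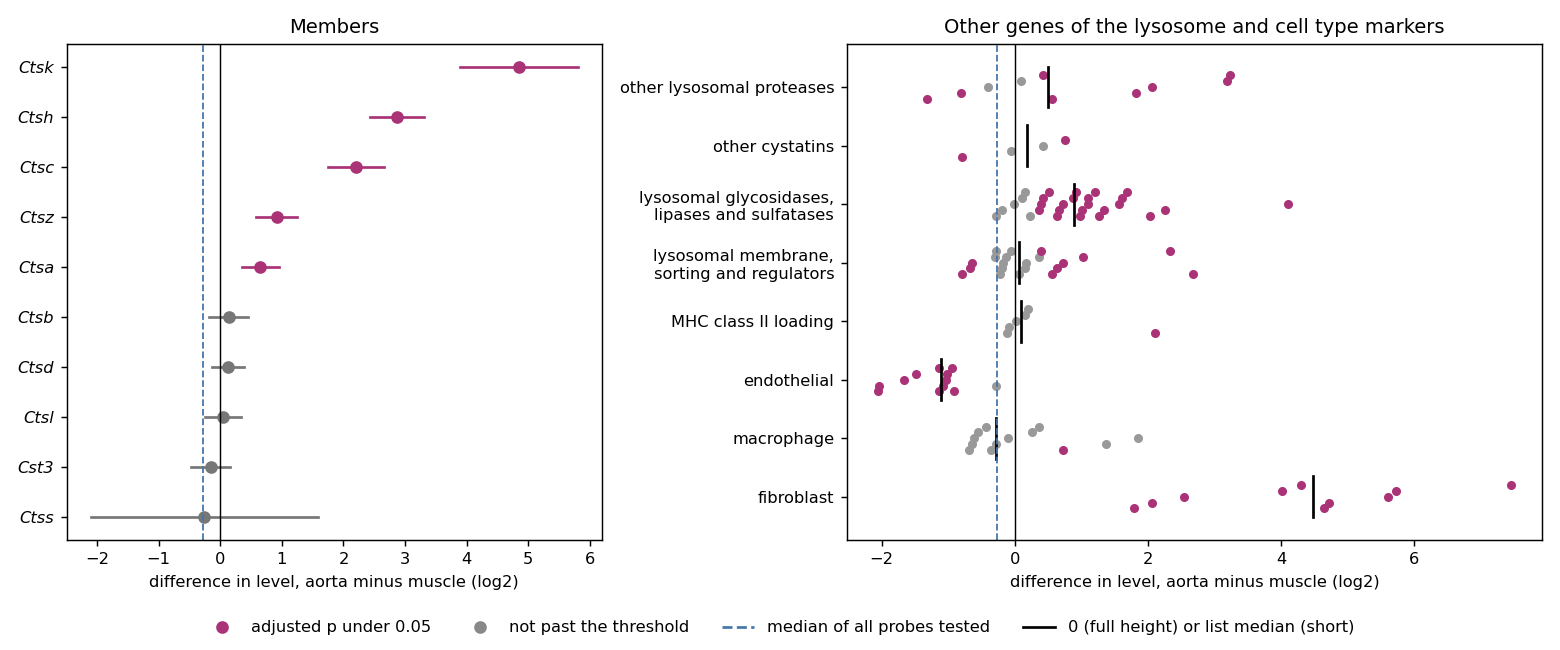
Difference in level between aorta and muscle (log2), with 95% intervals for the 10 members on the left and 1 point per gene for the other lists on the right; colour marks an adjusted p under 0.05, the dashed line the median of all probes (−0.27) and short lines the list medians. Of the members 5 lie above 0 past the threshold, and the fibroblast list lies above 0 and the endothelial list below 0.

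Markers of other cells differed between the tissues as well. All 10 fibroblast markers were higher in aorta, with a median of 4.48 log2, and the mean level of that list ran from 4.25 to 5.85 in aorta and from −0.72 to 3.24 in muscle. Of the 12 endothelial markers, 11 were lower in aorta, with a median of −1.11 log2. The mean level of the endothelial list ran from 1.98 to 4.04 in aorta and from 4.20 to 4.67 in muscle. It lay below the fibroblast list on every aortic array and above it on every muscle array. Of the macrophage markers, 1 of 13 tested was higher in aorta (Cd14, 0.72 log2) and none lower. All 6 adipocyte markers tested were higher in aorta (median 2.23 log2) and all 9 of skeletal muscle fibres lower (median −6.51). Of 7 smooth muscle markers, 1 was higher in aorta and 4 lower (median −0.92). Of 6 pericyte markers, none was higher and 4 were lower (median −0.92). These counts were the same with the deposited log2 table, with 2 exceptions. There 10 endothelial markers were lower, and 1 pericyte marker was higher and 3 were lower. How much of the differences in Ctsk, Ctsh, Ctsc, Ctsz and Ctsa goes with these other cells was not tested, and in pooled RNA fewer cells of a type and less RNA per cell cannot be told apart. Each slide held arrays of 1 tissue only, so that an effect of the slides cannot be told apart from one of the tissue. The values of limma above took the arrays as independent, while the correlation within a slide was 0.28. With the slide as a random block 5 members passed. Over all alternatives the largest adjusted p in limma was 3.71e-04 for Ctsk, 8.74e-05 for Ctsh and 4.86e-04 for Ctsc.

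The second question was how the genes respond to HFD. No member passed the threshold in any diet comparison of either tissue, strain by strain or over the mean of both strains. The background was as thin: 0% of the probes passed in WT aorta, KO aorta and WT muscle, 0.0039% in KO muscle, 0.031% over both strains in aorta and 0.289% over both strains in muscle. The median difference of the 10 members over both strains was 0.15 log2 in aorta and 0.27 in muscle, beside 0.01 and −0.01 for all probes. An unadjusted p under 0.05 was found for 1 of the 10 members over both strains in aorta (Ctsk) and 1 in muscle (Ctsh), and for 15.1% and 16.4% of all probes.

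The widest mean diet ratio over the 3 experiments belonged to Ctss in WT muscle. In experiments 1, 2 and 3 its level on chow was 0.80, −4.30 and −1.09, and on HFD it was 3.47, −0.49 and 2.29. Within each experiment the HFD array was the higher one, although the chow array of experiment 1 exceeded the HFD array of experiment 2. The log2 ratios ranged from 2.67 to 3.81 with a mean of 3.29 ± 0.58 (SD, n = 3), which is 9.77-fold.

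Ctss was the only member whose ratio was above 1 log2 in all 3 experiments, the criterion of the study, in any of the 4 groups of pairs. That criterion was met upward by 0.874% of the probes in WT muscle, 0.46% in KO muscle, 0.736% in WT aorta and 1.81% in KO aorta. In limma, where the spread is pooled over both strains, the difference in WT muscle had an SE of 1.52, a p of 0.0687 and an adjusted p of 0.452. By the methods' t-test of the 3 ratios, Ctss and Ctsc in WT muscle were the members with a p under 0.05, as were 8.27% of all probes, and no probe passed after adjustment. Without experiment 1 the mean ratio of Ctss was 3.60 log2.

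In KO muscle, the Ctss ratios were as wide but did not share a direction. Its level on chow was 0.90, −3.56 and 0.45 in experiments 1, 2 and 3, and on HFD 4.60, 1.12 and −3.63. HFD was higher in the first 2 experiments and lower in the third, and the mean ratio of 1.44 ± 4.79 log2 (SD, n = 3) was far smaller than its spread. Without experiment 3 it was 4.19 log2 and without experiment 1 it was 0.30. In aorta the ratio ran from −3.88 to 1.26 in WT and from −1.41 to 3.73 in KO, and the groups overlapped.

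Macrophage markers had a similar pattern in muscle. The mean level of the 15 macrophage genes with a probe was −2.27, −5.67 and −4.20 on WT chow and −1.01, −4.33 and −1.83 on WT HFD, higher on HFD in each experiment. On KO chow it was −2.63, −6.12 and −3.43 and on KO HFD 0.00, −3.39 and −5.60, with the same reversal in experiment 3 as Ctss. The sign of the diet ratio was the same for Ctss and the list in 6 of 6 muscle pairs and in 4 of 6 aortic pairs. This was not particular to the macrophage list. In muscle the other lysosomal proteases and the MHC class II list also had the sign of Ctss in 6 of 6 pairs, and the fibroblast list in 5 of 6.

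The 3 muscle arrays with the highest Ctss level were the 3 with the highest list level, and the 3 lowest were the same arrays too. Between 7 and 15 of the 15 macrophage genes were well above background on a muscle array. The level of Ptprc, which encodes the CD45 against which the cells were sorted, ran from −9.38 to −0.83 in muscle and was well above background on 10 of 12 arrays, and Adgre1, which encodes a surface receptor of macrophages, ran from −9.42 to 1.67 and was so on 9 of 12. In WT muscle 0 of 12 tested macrophage genes passed the threshold, with a median difference of 2.04 log2. The filter on dim probes may raise this median, since genes bright on HFD alone were tested. The part of macrophage RNA in the Ctss ratios was not tested.

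**Figure D3:**
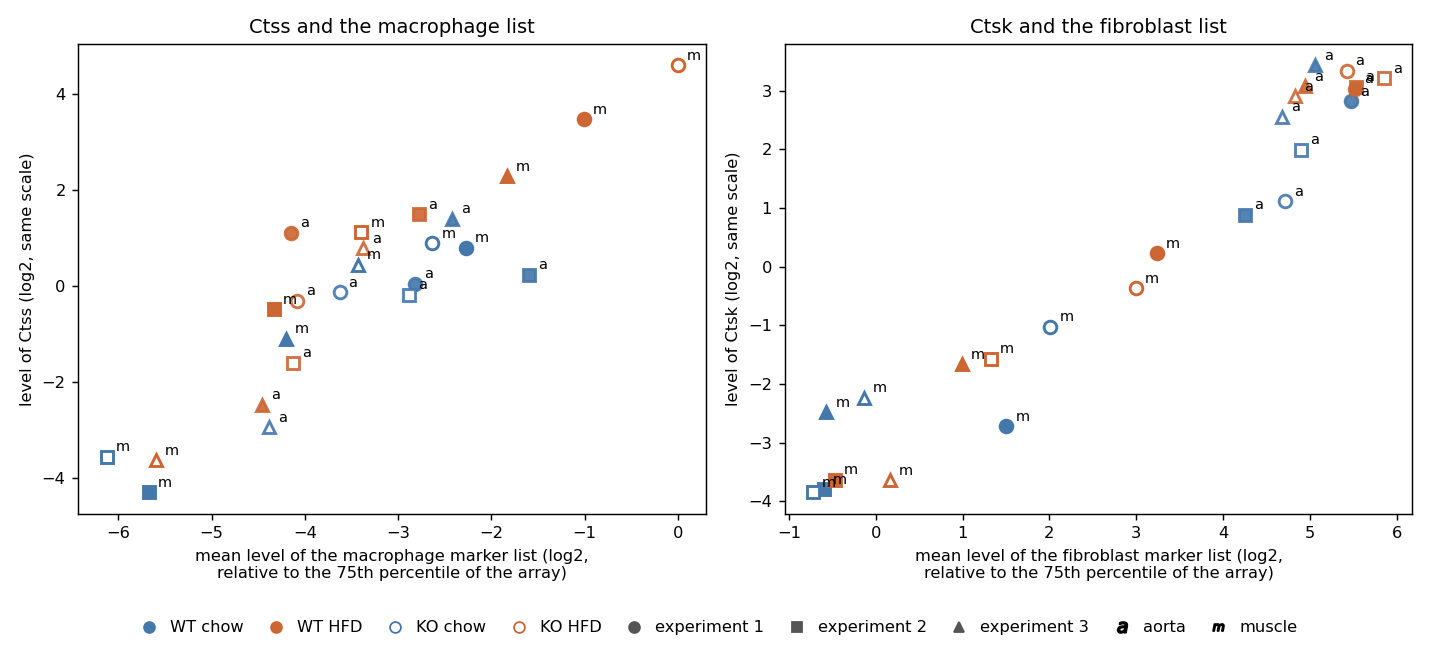
Level of Ctss against the mean level of the macrophage marker list (left) and of Ctsk against the fibroblast list (right), 1 point per array, with colour for diet, filled points for WT and open for KO, shape for experiment and a letter for the tissue (a, aorta; m, muscle); all levels are log2 relative to the 75th percentile of the array. The 3 muscle arrays with the highest Ctss level are the 3 highest on the macrophage list, and the aortic arrays lie together at high Ctsk and a high fibroblast list.

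Ctsh had a higher level on HFD in every muscle pair. On WT chow its level was 2.19, 1.45 and 3.52 in the 3 experiments and on WT HFD 3.17, 3.77 and 3.76. On KO chow it was 2.75, 2.49 and 2.50 and on KO HFD 3.66, 4.12 and 2.89. This was 6 of 6 pairs, as in 5.59% of all probes, and in KO the HFD arrays all lay above the chow arrays, as in 3.99%. Over both strains the difference was 1.08 log2 (SE 0.30, adjusted p = 0.174), and it was 1.14 without experiment 1, 0.63 without experiment 2 and 1.46 without experiment 3.

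In aorta the Ctsh difference was 0.12 log2. The difference between the responses of the tissues was −0.96 log2 (95% interval −1.81 to −0.11, adjusted p = 0.475), in a comparison in which 0% of the probes passed. The mean level of the fibroblast list was higher on HFD in the same 6 muscle pairs, by 0.13 to 2.04 log2, and the macrophage list had the sign of Ctsh in 5 of 6. The list of lysosomal glycosidases, lipases and sulfatases was also higher in these 6 pairs, by 0.11 to 0.30 log2. Any list higher in all 6 pairs has the sign of Ctsh, and the part of these cells was not tested.

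Ctsk, the other elastin- and collagen-cutting cathepsin with wide ratios, was higher on HFD in 5 of 6 aortic and 5 of 6 muscle pairs. In KO aorta its level was 1.12, 1.99 and 2.56 on chow and 3.34, 3.21 and 2.90 on HFD, so that every HFD array lay above every chow array, as in 7.14% of all probes. The mean ratio there was 1.26 ± 0.94 log2 (SD, n = 3, adjusted p = 0.457). In WT aorta the chow arrays read 2.82, 0.89 and 3.43 and the HFD arrays 3.03, 3.07 and 3.07.

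In WT muscle Ctsk went from −2.72, −3.80 and −2.48 on chow to 0.23, −3.63 and −1.66 on HFD, higher in each experiment. In KO muscle it went from −1.02, −3.85 and −2.23 to −0.37, −1.57 and −3.64, lower in experiment 3 only. Over both strains the difference was 0.97 log2 in aorta (adjusted p = 0.324) and 0.91 in muscle (adjusted p = 0.442). With 1 experiment left out these ran from 0.61 (without experiment 2) to 1.46 (without experiment 3) in aorta and from 0.47 (without experiment 1) to 1.51 (without experiment 3) in muscle. In KO aorta the value was 0.78 without experiment 1. The fibroblast list had the sign of Ctsk in 6 of 6 aortic and 5 of 6 muscle pairs, and the macrophage and MHC class II lists had it in 6 of 6 muscle pairs. Other lists came close: the other lysosomal proteases had it in 5 of 6 aortic and 6 of 6 muscle pairs. The smooth muscle and pericyte lists had it in 5 of 6 aortic pairs. In experiment 3 of KO muscle the ratio was −2.17 log2 for the macrophage list and 0.30 for the fibroblast list. The part of RNA from these cells was not tested.

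Ctsc, the activator of granule proteases, was higher on HFD in all 3 WT muscle pairs, from −0.82, −1.80 and −0.28 on chow to 0.20, −0.42 and 0.50 on HFD. The mean ratio was 1.06 ± 0.30 log2 (SD, n = 3), with an adjusted p of 0.441, and it was 1.08 log2 without experiment 1. In KO muscle the chow arrays read −0.79, −0.20 and 0.12 and the HFD arrays 0.84, −0.31 and −0.96, higher in 1 pair of 3.

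The remaining genes had mean ratios under 0.5 log2 in size in each strain and tissue. Ctsz had a higher level on HFD in 6 of 6 muscle pairs, by 0.03 to 1.32 log2, and Ctsd a lower one in 6 of 6, with ratios from −0.52 to −0.06. Of all probes, 5.69% were lower in 6 of 6. The pericyte list was lower on HFD in the same 6 pairs, with ratios from −1.06 to −0.34, none of its 6 genes passed, and its part was not tested. The adjusted p over both strains was 0.480 for Ctsz and 0.470 for Ctsd, and the differences were 0.33 and −0.23 log2, or 0.47 and −0.17 without experiment 1. Without experiment 2 that of Ctsz was 0.05. Over both strains, the HFD minus chow difference of the inhibitor Cst3 was 0.15 log2 in aorta (95% interval −0.41 to 0.71) and −0.06 in muscle (−0.46 to 0.33). That of Ctsl was 0.03 (−0.53 to 0.59) in aorta and −0.11 (−0.56 to 0.35) in muscle, that of Ctsb 0.15 and 0.20, and that of Ctsa 0.28 and 0.10. The probes of a gene differed in sign for Ctsb in aorta (−0.14 and 0.15) and for Ctsa in muscle (−0.26 to 0.12).

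**Figure D4:**
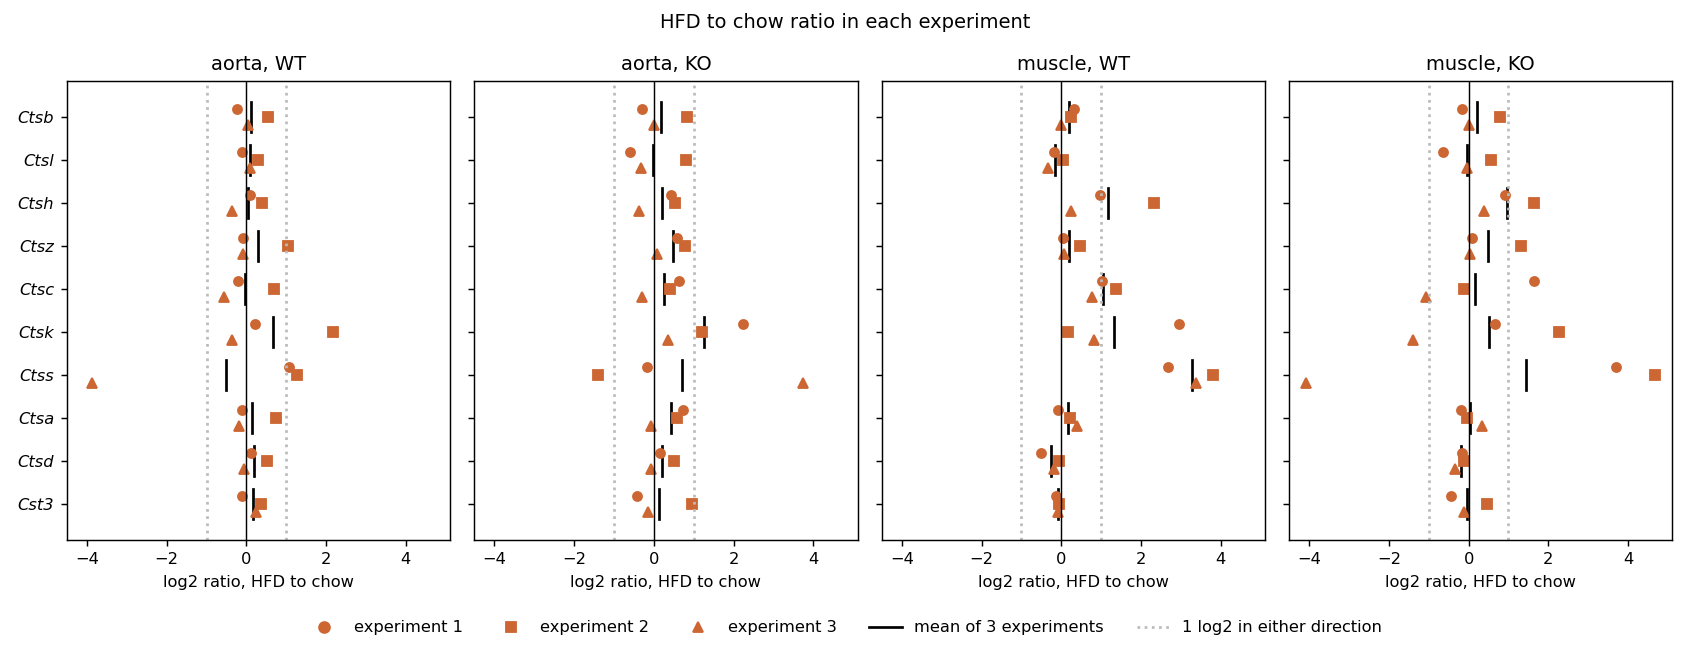
Ratio of HFD to chow (log2) of each gene in each experiment (points) and its mean (lines), for both tissues and strains; dotted lines mark 1 log2 in either direction. Ctss in WT muscle is the gene with all 3 points beyond 1 log2, and its points in KO muscle run from −4.07 to 4.68.

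None of the other genes of the lysosome passed in the diet comparisons over both strains. The largest differences were those of Dpp7 (0.70 log2) and Scpep1 (0.45) among the proteases in aorta and of Cpq (1.39) and Ctsw (1.00) in muscle. Among the cystatins they were those of Stfa3 (−0.63) and Cstb (0.32) in aorta and of Cst6 (1.08) and Cstb (0.35) in muscle. Of the glycosidases, lipases and sulfatases, 24 of 28 had a value above 0 in aorta, beside 51.1% of all probes. By pairs, the mean of these genes was lower on HFD in experiments 1 and 3 of WT aorta (−0.07 and −0.10 log2). In the other aortic pairs it was higher, by 0.08 to 0.77. The median of this list was 0.38 log2, and Arsb had its largest value in both tissues (0.73 and 1.11).

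The MHC class II genes, whose loading depends on cathepsin S, had values above 0 for 6 of 6 genes in aorta and 5 of 5 in muscle, with medians of 0.52 and 1.17 log2. Of all probes, 51.1% in aorta and 49% in muscle had a value above 0. In muscle the other genes of the 7 with a probe were too dim to test. A gene bright throughout in only 1 group was tested too. The mean of the list in WT muscle was −1.89 on HFD and −3.81 on chow, so the filter may add to the muscle count. The largest values of this list belonged to Ciita (1.49) and H2-DMb1 (0.78) in aorta and to H2-DMb1 (2.02) and H2-Ab1 (1.66) in muscle. Among the membrane and sorting genes the largest were Cd63 (0.80) and Mitf (−0.76) in aorta and Sort1 (−0.74) and Gnptab (0.51) in muscle. Beside these values in aorta, the mean level of the adipocyte list was lower on HFD in 6 of 6 pairs, with ratios from −4.74 to −1.75 log2, and the macrophage list was lower in 5 of 6. The endothelial markers had values below 0 for 12 of 12 genes over both strains in aorta, with a median of −0.61 log2, and their mean level was lower on HFD in 5 of 6 pairs, with ratios from −1.62 to 0.61. The fibroblast markers had values above 0 for 10 of 10 genes there, with a median of 0.57 log2, beside 51.1% of all probes above 0. The ratios of the fibroblast list mean ran from −0.12 to 1.27 log2 over the aortic pairs. None of these markers passed the threshold, and their part in the aortic values was not tested. The smooth muscle and pericyte list means were higher on HFD in every aortic pair, by 0.02 to 0.84 and 0.08 to 0.93 log2. Their part was not tested either.

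The third comparison was that of the strains. No member passed in KO against WT on chow or HFD, nor in the difference between the diet responses of the strains. The background was 0.0116% of the probes on chow and 0.00387% on HFD in aorta, 0% on either diet in muscle, and 0% for the difference between the diet responses in both tissues. No member reached an unadjusted p under 0.05 in these 6 comparisons, as 1.14% to 4.39% of the probes did. Without experiment 1 no member passed either, and for the 9 members other than Ctss KO minus WT then lay between −0.01 and 0.23 log2 on either diet in aorta, between −0.08 and 0.99 on chow in muscle and between −0.68 and 0.51 on HFD in muscle.

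The largest strain difference was that of Ctss in aorta on chow. The WT arrays read 0.05, 0.24 and 1.41 and the KO arrays −0.13, −0.18 and −2.94, so that all WT arrays lay above all KO arrays, as in 2.76% of all probes. The difference was −1.65 log2 (SE 1.08, adjusted p = 1.00). It rested on experiment 3, without which it was −0.30, and it was −2.38 without experiment 1. Of the macrophage genes, 12 of 13 had a value below 0 in the same comparison, with a median of −0.94 log2, and none passed. Among all probes 53.7% had a value above 0 there. A gene was tested if at least 1 group was bright throughout, and the mean of the macrophage list was −2.28 in WT chow and −3.63 in KO chow. Genes tested through the WT chow arrays tend to read lower elsewhere, so the filter may add to this count.

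Averaged over the 6 pairs of a tissue, KO minus WT lay between −0.12 and 0.20 log2 for the steady genes Ctsa, Ctsb, Ctsd, Ctsl, Ctsz and Cst3. The muscle mean of Ctsh was 0.09, from pairs that ran from −1.01 to 1.04. In muscle, Cst3, Ctsb and Ctsz were higher in KO in 5 of 6 pairs, by 0.17, 0.12 and 0.20 log2 in the mean, and 15.8% of all probes were so in at least 5 pairs. In aorta they were higher in KO in 3, 2 and 2 of 6 pairs, with means of 0.10, 0.08 and −0.12. The diet response of Ctss in muscle in KO minus that in WT was −1.85 log2, with an SE of 2.15 and an adjusted p of 0.999. It was −3.29 without experiment 1 and 0.95 without experiment 3.

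The genes with the most similar pattern were sought among 14211 other symbols, by Pearson's r over the 24 arrays of the deviations from the tissue mean. These are descriptions over arrays that share slides and experiments. For Ctss they were Adgre1 (r = 0.93), Tyrobp (0.90), the signalling adaptor of myeloid cells, and Ms4a6d (0.87), 2 of which are on the macrophage list. For Ctsk they were F3, the tissue factor gene (0.92), the receptor kinase gene Axl (0.91) and Glt8d2 (0.91), and for Ctsh they included Calml4 (0.84) and Serf1 (0.83).

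For the steady genes the values of r were as high. Ctsl went with the ribosomal protein genes Rps4x (0.94) and Rpl7 (0.93), and Cst3 with Ak3 (0.94) and Rps16 (0.93). Ctsb went with Ifitm3 (0.94), Shisa5 (0.94) and Tmed10 (0.93), Ctsz with Yipf5 (0.90), Ccnq (0.89) and Tmed3 (0.89), and Ctsd with Tex264 (0.86), Flot1 (0.86) and Mid1ip1 (0.84).

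Ctsa went with Stn1 (0.87) and Tbrg1 (0.87). Ctsc went with Lgals7, the galectin-7 gene (0.78), the proton channel gene Hvcn1 (0.74) and the monocarboxylate carrier gene Slc16a7 (0.74). Among the members themselves the highest values were those of Cst3 with Ctsl (0.87) and with Ctsb (0.85) and of Ctsb with Ctsl (0.82). The neighbours Ctsk and Ctss stood at 0.69, although the tissue difference was 4.85 log2 for the one and −0.26 for the other.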

How the data were processed

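Single-colour Agilent arrays of sorted endothelial cells were analysed, 24 in all. Per the file headers, the processed intensity of each spot was made by Feature Extraction 10.5.1.1 (the labels name 9.1), which subtracts background and detrends the array. The authors also deposited a log2 table, which equals the log2 of those intensities plus 1 constant per array and puts the 75th percentile at 12.1 in aorta and 11.9 in muscle. Here each processed intensity was taken on the log2 scale, without a pseudocount, minus the log2 of the array's 75th percentile, outlier spots were dropped and spots of a probe averaged. No spot was saturated.

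Accessions matched 27479 probes to 1 symbol (GRCm38.p6 gene table, names only). A probe was tested if at least 1 group had it well above background throughout, which left 25829 probes in aorta, 25640 in muscle and 27346 for both tissues together. limma 3.58.1 (R 4.3.3) was fitted over all of them. Diet contrasts were blocked by pair (strain and experiment), and strain and tissue contrasts used group means. The threshold was a Benjamini-Hochberg adjusted p of 0.05. The fits were tested on simulated data. Same-numbered HFD and chow arrays deviated together in most pairs (r 0.02 to 0.56, median 0.34, over 0.1 in 10 of 12 pairs). KO and WT arrays did so in all 12 pairs (0.12 to 0.77, median 0.48), which the main strain contrasts did not block. Within a tissue each slide held 1 experiment. Arrays have no read depth, and the precision is limited by how many there are.

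The text names the 10 members, Lgals3, list genes past the threshold or, where none was, the 2 with the largest change, and for each member the 3 genes most like it, some of which are not reported here. Members and lists were chosen with earlier results of these data known. Alternatives were normexp (offset 50), quantile normalization, the deposited table, 2 other filters, each experiment left out, other blocks, the mean over probes and the methods' t-test.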

Additional observations from a re-analysis of the deposited data

How the results depend on the processing

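Of 172 counts of members recomputed under the alternatives, 167 stayed within 1.5 times the count as reported. Most of these counts were 0 as reported, so that this agreement says little. The count of members past the threshold between aorta and muscle (5) was 8 with quantile normalization, which added Ctsb, Ctsd and Ctsl, and 7 with the deposited log2 table, and it ranged from 4 to 5 when 1 experiment was left out, since Ctsa was lost without experiment 1. It stayed at 5 with the replicate block and with the slide as a random block. The replicate block, and its removal from the diet comparisons, changed no other count. The number of members past 1 log2 in every experiment ranged from 1 to 2 in WT muscle (1 with all 3) and from 0 to 1 in WT aorta, KO aorta and KO muscle (0 with all 3) when 1 experiment was left out, and the higher counts came without experiment 3, when 2 ratios in place of 3 had to pass. For single members, 61 of 1416 recomputed values moved by more than 1 SE without crossing the threshold, 5 gained a call and 1 lost it. None that was past the threshold changed sign, and all of those belonged to the comparison of aorta and muscle. Values short of the threshold did change sign. The HFD minus chow difference of Ctss in KO muscle ran from −0.19 to 4.19 log2 over the alternatives. With 3 arrays a group, a difference of 1.08 log2 (Ctsh in muscle over both strains) or of 3.29 log2 (Ctss in WT muscle) did not pass the threshold.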
